A study of Mus musculus with 12 samples.

Results

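Transcripts of the tight junction were followed in the mouse colon during recovery from chemical injury. The 10 genes are 8 claudins (Cldn1, Cldn2, Cldn3, Cldn4, Cldn7, Cldn8, Cldn15 and Cldn23), Ocln, which encodes occludin, and Tjp1, which encodes the scaffold protein ZO-1. They were found by symbol among array probe sets that carry a single gene. All 10 were measured, each by 1 probe set, of 19938 genes in all. Colon tissue came from 12 male wild-type C57BL/6 mice, 7 weeks old when the experiment began, and each mouse had its own array. DSS+L-Arg mice drank 4% dextran sulfate sodium (DSS, a polymer that damages the lining of the colon) for 6 days and then 1% L-arginine (L-Arg) for 4 days. DSS mice drank the same DSS and then water alone, control+L-Arg mice received L-Arg without DSS, and control mice received neither. Each group had 3 mice, and all were sacrificed on day 10. By the methods of the study, a proximal and a distal piece of each colon were combined. The study also measured the permeability of the mucosa in this model, so the comparison asks whether transcripts of the paracellular barrier differed between the same treatments.

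Tight junctions join epithelial cells near their apical surface and control what passes between the cells. Claudins cross the membrane and bind claudins of the neighboring cell. Some of them seal the space, while others, such as claudin-2 and claudin-15, form channels for small cations. Occludin and tricellulin are further membrane proteins of the junction, and ZO proteins tie the membrane proteins to the actin cytoskeleton. In colitis, lower levels of sealing claudins and higher levels of claudin-2 are widely described. The arrays measured RNA alone, so protein levels and the place of the proteins in the cell were not observed.

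Promoter sequences, 250 bases before to 50 bases after the start of the gene, were taken from RefSeq (build GRCm38.p6). The table held 10 windows for 8 of the 10 genes, and Cldn8 and Cldn23 were not matched. Those of 3 genes are shown because they belong to the claudin that rose with DSS (Cldn1) and to the 2 channel-forming claudins whose signals were lowest in the same DSS mouse (Cldn2 and Cldn15). Capitals mark matches to the motifs that were searched on both strands.
Cldn1, chr16:26371790-26372089, minus strand: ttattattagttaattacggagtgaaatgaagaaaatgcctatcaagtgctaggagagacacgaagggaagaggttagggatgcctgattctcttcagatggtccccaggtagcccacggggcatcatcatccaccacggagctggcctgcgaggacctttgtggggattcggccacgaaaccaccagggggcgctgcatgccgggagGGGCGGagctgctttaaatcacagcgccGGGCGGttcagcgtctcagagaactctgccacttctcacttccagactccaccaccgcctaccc
Cldn2, chrX:139800558-139800857, plus strand: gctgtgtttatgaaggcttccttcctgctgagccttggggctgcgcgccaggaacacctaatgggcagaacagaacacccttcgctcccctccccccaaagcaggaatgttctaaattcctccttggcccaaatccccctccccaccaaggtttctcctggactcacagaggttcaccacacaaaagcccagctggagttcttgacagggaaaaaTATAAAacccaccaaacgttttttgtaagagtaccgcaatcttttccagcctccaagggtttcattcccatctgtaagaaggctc
Cldn15, chr5:136967619-136967918, plus strand: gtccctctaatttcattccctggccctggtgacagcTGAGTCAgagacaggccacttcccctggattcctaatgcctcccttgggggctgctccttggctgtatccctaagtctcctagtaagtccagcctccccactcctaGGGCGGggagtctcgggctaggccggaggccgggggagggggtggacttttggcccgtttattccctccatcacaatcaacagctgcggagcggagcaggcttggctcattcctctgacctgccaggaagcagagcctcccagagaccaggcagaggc
The capitals mark the Sp1 box GGGCGG in Cldn1 (2 matches) and Cldn15, the TATA box TATAAA in Cldn2, and the AP-1 motif TGANTCA in Cldn15. The Sp1 box was found in 8 of the 10 windows, against 35.7% of 32851 promoters of the same length. Cldn7 and Ocln had 2 windows each. Both Ocln windows, which overlap in part, are among these 8, so the windows are not independent. AP-1 was found in 2 of the 10 windows, those of Cldn15 and Cldn4, against 7.81% of all promoters. The TATA box was found in 1 of the 10, against 13.6%. The STAT motif TTCNNNGAA matched 1 Cldn7 window (8.30% of all promoters), and the GATA motif TGATAA matched Tjp1 (9.05%). No window held the CDX motif TTTATNG (10.9% of all promoters), the FOX motif TGTTTNC (20.5%), the NF-kB motif (1.63%) or the HNF1 motif (0.00913%). Among these matches none overlapped another. A match describes the letters of the window alone.

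Values are log2 signals, and a difference of 1 is a doubling. They are compared between mice for 1 gene at a time, since probe sets of different genes differ in brightness for the same amount of RNA. Cldn1 was dim in every group, and it alone of the 10 was left out by a filter on dim genes, which asked for 3 or more mice with a signal over percentile 30 of the arrays. The other 9 passed. In the bulk tissue, fewer cells of a type and less RNA per cell cannot be told apart. As a set, epithelial markers differed little between the groups. Their median, set against the control mean, lay between -0.06 and 0.03 in DSS+L-Arg mice, between -0.06 and 0.01 in DSS mice, between -0.15 and -0.05 in control+L-Arg mice and between -0.03 and 0.03 in control mice. Every control+L-Arg mouse thus lay below every control mouse. None of these 14 markers was called in any comparison. Their summed linear signal was 84125 to 90192 in DSS+L-Arg mice, 85213 to 85484 in DSS mice, 79890 to 84196 in control+L-Arg mice and 84180 to 88262 in control mice. Neutrophil and macrophage markers moved with the groups, with a summed linear signal of 1784 to 2390 in DSS+L-Arg mice, 4226 to 15458 in DSS mice, 1292 to 1674 in control+L-Arg mice and 1250 to 1883 in control mice. Of these 13 markers, 9 were called higher in DSS than in control mice, led by S100a8 (log2 difference 3.91), Retnlg (3.83), S100a9 (3.57) and Fcer1g (2.46). The mean was lower in DSS+L-Arg than in DSS mice for 12 of the 13. Of these, 4 were called, S100a9 (-3.16), Fcer1g (-1.98), Itgam (-1.90) and Tyrobp (-1.74). The smooth muscle markers had a lower mean in DSS than in control mice in 10 of 10, and none of the 10 was called. Their summed signal was 6980 to 12796 in DSS+L-Arg mice, 5799 to 8622 in DSS mice, 9944 to 33725 in control+L-Arg mice and 11732 to 25561 in control mice. Endothelial markers had higher means in DSS than in control mice in 9 of 9 (median difference 0.36, 5 with an unadjusted p under 0.05) and lower means in DSS+L-Arg than in DSS mice in 9 of 9 (median difference -0.43, 6 with an unadjusted p under 0.05), and none was called in any comparison (lowest adjusted p 0.068 and 0.052 in these). Their summed signal was 722 to 816 in DSS+L-Arg mice, 1019 to 1779 in DSS mice, 800.3 to 1379 in control+L-Arg mice and 809 to 979 in control mice. Of 12 squamous epithelium markers, only Lor was called, lower in DSS than in control mice (-0.64). Apart from the epithelial covariate given with the results, the part of these cells in the values was not tested.

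**Figure D1:**
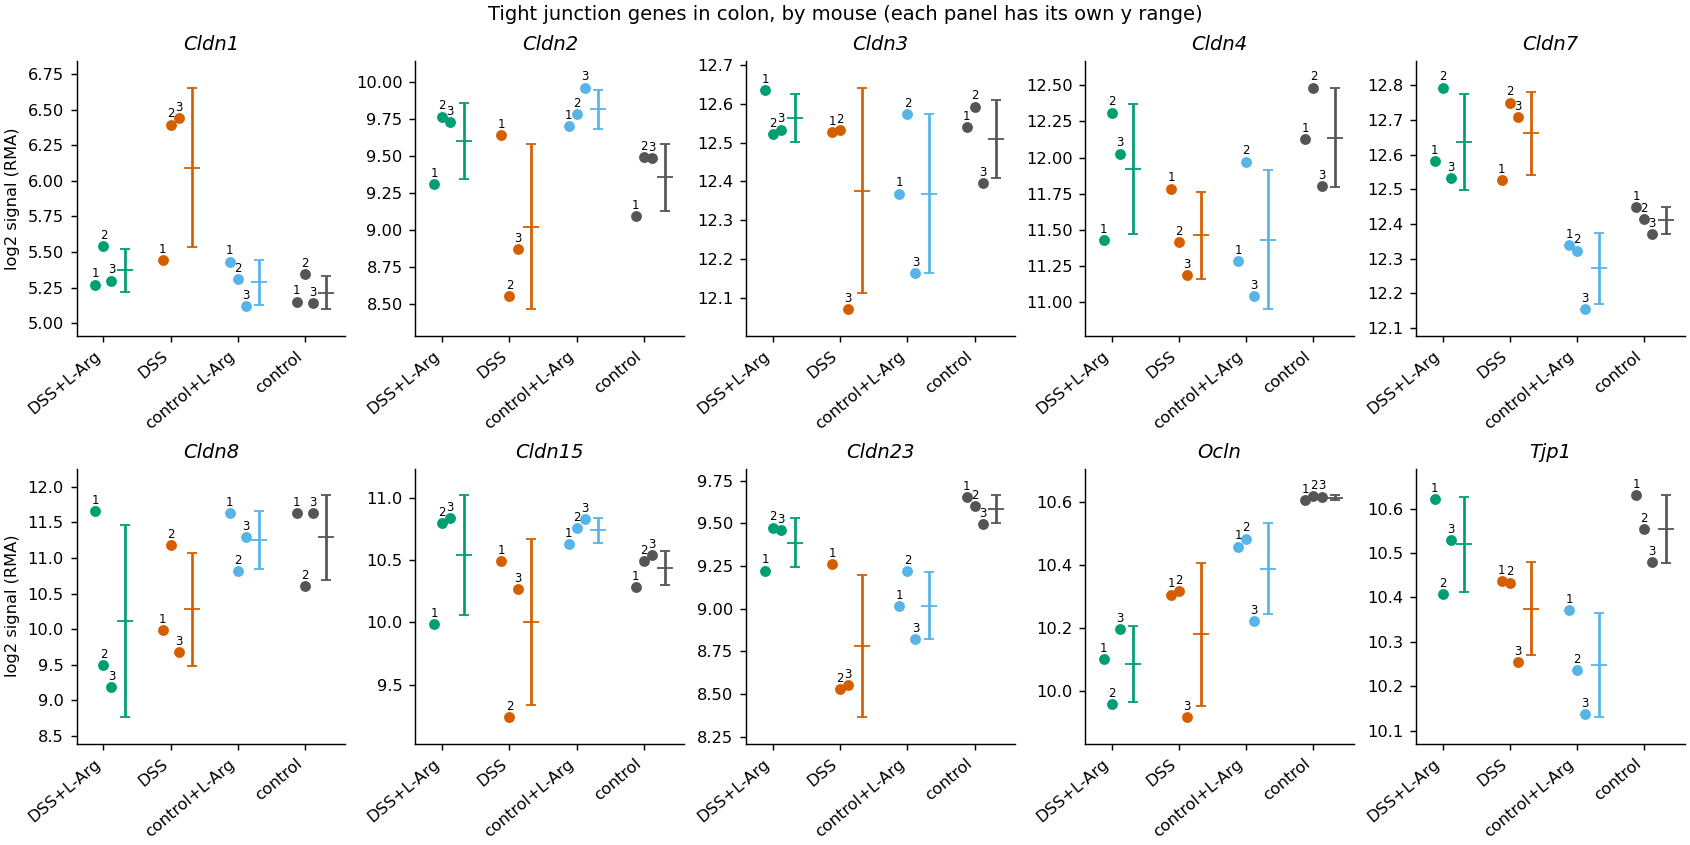
Log2 signal (y axis, a separate range in each panel) of the 10 tight junction genes in each mouse, by group (x axis). Points are mice with their numbers, and the bar beside them is the mean with its SD (n = 3). In the panel of Cldn1, DSS mice 2 and 3 stand at 6.40 and 6.44, above all other mice, and in the panel of Ocln every control mouse lies above all mice of the other 3 groups.

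DSS mice were compared with control mice to see which junction transcripts differed after injury and 4 days of recovery on water. Cldn1 rose and Cldn23 fell, and the means of 8 of the 10 genes were lower with DSS. These 2 were the only ones of the 10 called at an adjusted p under 0.05 (limma with Benjamini-Hochberg adjustment over all genes). Over all genes 4.03% were called, 1.80% higher and 2.23% lower. The median difference of the 10 genes was -0.38, against -0.01 over all genes. The 10 genes were chosen with earlier results of these data known, so a contrast with all genes describes them and is no test of the set. This limit holds for every share of the 10 set against all genes. The groups did not overlap for 6 of the 10 (Cldn1, Cldn4, Cldn7, Cldn23, Ocln and Tjp1), against 25.0% of all genes. At an unadjusted p under 0.05 limma took 5 of 10, against 19.6% of all genes. The unequal-variance test took 0 of 10, against 9.91% of all genes, and SAM 6 of 10, against 17.5%, and neither called any gene of the array after adjustment.

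Among the sealing claudins, Cldn1 encodes claudin-1, a barrier-forming claudin that is best known from the skin. Its log2 signal was 5.45, 6.40 and 6.44 in DSS mice 1, 2 and 3, against 5.15, 5.35 and 5.14 in control mice. Every DSS mouse lay above every control mouse, but DSS mouse 1 was close to the control range and the other 2 were far above it. Cldn1 was 1.84-fold higher in DSS mice (log2 difference 0.88, SE 0.22, limma adjusted p = 0.049). Leaving out DSS mouse 1, the nearest to control mice, could only widen the difference, which was then 1.20 (limma adjusted p = 0.00085). That fit called 7.01% of all genes, and its adjusted p is a description and no separate test. The call was lost in 20 of 23 alternative fits, in which the difference stayed between 0.62 and 1.20 and the adjusted p between 0.00085 and 0.53. These fits include SAM, which as run here cannot call a gene with 3 against 3.

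Cldn23 encodes claudin-23, a claudin of mature colonic surface cells. Its signal was 9.26, 8.53 and 8.55 in DSS mice, against 9.66, 9.60 and 9.50 in control mice. All 3 DSS mice were lower than all 3 control mice, with DSS mouse 1 again nearest to them. Cldn23 was 1.74-fold lower with DSS (log2 difference -0.80, SE 0.18, limma adjusted p = 0.032). Without DSS mouse 1, which could only widen it, the difference was -1.04 (limma adjusted p = 0.0018, beside 7.01% of all genes called). This too is a description and no separate test. The call was lost in 12 of 24 alternative fits, SAM among them (adjusted p from 0.0018 to 0.51).

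Cldn4 encodes claudin-4, a sealing claudin of surface epithelium. It was 11.79, 11.42 and 11.19 in DSS mice, against 12.13, 12.48 and 11.80 in control mice. The ranges nearly touched, with the highest DSS mouse just under the lowest control mouse. The difference was -0.68 (95% interval -1.29 to -0.06) and was not called (adjusted p = 0.21). Cldn3 encodes claudin-3, another sealing claudin of the gut. It was 12.53, 12.53 and 12.07 in DSS mice, against 12.54, 12.59 and 12.40 in control mice. Only DSS mouse 3 was below the control range. The difference was -0.13 (95% interval -0.44 to 0.17, adjusted p = 0.67).

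Cldn7 encodes claudin-7, which lies along the basolateral membrane as well as in the junction and binds EpCAM. It was 12.53, 12.75 and 12.71 in DSS mice, against 12.45, 12.41 and 12.37 in control mice. The DSS mice were the higher ones without overlap, by a small amount. The difference was 0.25 (95% interval 0.04 to 0.47) and was not called (adjusted p = 0.18). Cldn8 encodes claudin-8, a claudin of the distal colon that limits the back leak of sodium. It was 9.98, 11.17 and 9.68 in DSS mice, against 11.63, 10.60 and 11.63 in control mice. The groups overlapped and both spread over more than 1 log2 unit. The difference of -1.01 was the largest of the 10 in size and had the widest 95% interval, from -2.31 to 0.29 (adjusted p = 0.39).

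The channel-forming claudins were not called. Cldn2 was 9.64, 8.56 and 8.87 in DSS mice, against 9.09, 9.49 and 9.49 in control mice. DSS mouse 1 was above all control mice and the other 2 DSS mice were below all of them. The difference was -0.34 (95% interval -0.86 to 0.19, adjusted p = 0.49), which runs opposite to the rise of Cldn1. Cldn15 was 10.49, 9.24 and 10.27 in DSS mice, against 10.28, 10.49 and 10.54 in control mice. DSS mouse 2 stood apart, more than 1 log2 unit below the mouse next to it in its group. The difference was -0.44 (95% interval -1.09 to 0.21, adjusted p = 0.46).

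Occludin and ZO-1 transcripts had lower means with DSS and were not called. Ocln was 10.31, 10.32 and 9.92 in DSS mice, against 10.61, 10.62 and 10.62 in control mice. Control mice were nearly identical (SD 0.0076) and all DSS mice were below them. The difference was -0.43 (SE 0.12) and missed the threshold (adjusted p = 0.069, from 0.052 to 0.52 over the alternatives). Tjp1 was 10.44, 10.43 and 10.25 in DSS mice, against 10.63, 10.55 and 10.48 in control mice. The groups did not overlap, with a gap that was narrow. The difference was -0.18 (95% interval -0.39 to 0.03, adjusted p = 0.34).

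**Figure D2:**
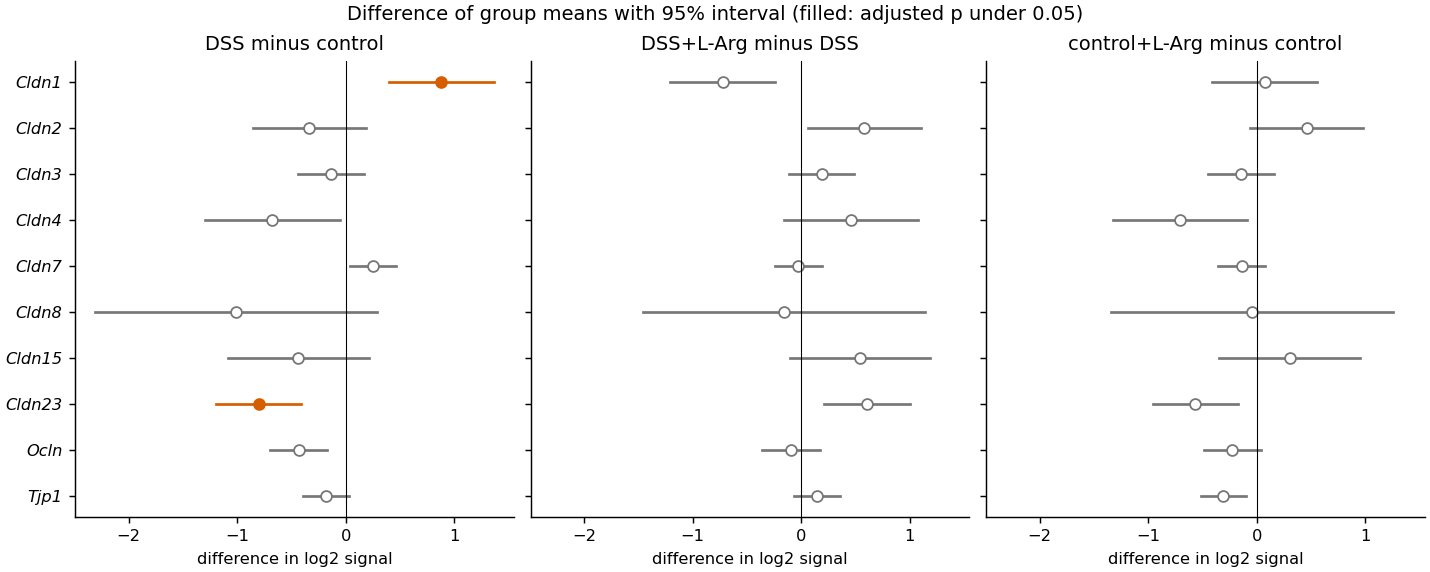
Difference in log2 signal (x axis) of the 10 genes for DSS minus control, DSS+L-Arg minus DSS and control+L-Arg minus control. Points are differences of group means (n = 3 mice each), lines are 95% intervals, and filled points have an adjusted p under 0.05, which holds for Cldn1 (0.88) and Cldn23 (-0.80) in the first panel alone.

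DSS+L-Arg mice were compared with DSS mice to see whether L-Arg during recovery changed these transcripts. None of the 10 genes was called by limma or by the unequal-variance test, while limma called 0.637% of all genes. SAM as run here cannot call a gene with 3 against 3. At an unadjusted p under 0.05 limma took 3 of the 10 (Cldn1, Cldn2 and Cldn23), against 13.5% of all genes. The unequal-variance test took 0 of the 10, against 5.80% of all genes, and SAM 2, against 9.72%. The groups overlapped for all 10, against 16.6% of all genes without overlap. The median difference of the 10 was 0.17, against 0.06 over all genes. The DSS mice are shared with the comparison of DSS with control mice, so a DSS mouse that stands apart moves both comparisons.

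Cldn1 was 5.27, 5.54 and 5.30 in DSS+L-Arg mice, against 5.45, 6.40 and 6.44 in DSS mice. The DSS+L-Arg mice lay near the level of control mice, and DSS mouse 1 lay within their range. The difference was -0.72 (95% interval -1.21 to -0.24, adjusted p = 0.20). Cldn23 was 9.22, 9.47 and 9.46 in DSS+L-Arg mice, against 9.26, 8.53 and 8.55 in DSS mice. Here too DSS mouse 1 lay among the DSS+L-Arg mice and the other 2 DSS mice lay below them. The difference was 0.61 (95% interval 0.21 to 1.00, adjusted p = 0.19). Cldn2 was 9.31, 9.77 and 9.73 in DSS+L-Arg mice, against 9.64, 8.56 and 8.87 in DSS mice, a difference of 0.58 (SE 0.24, adjusted p = 0.32).

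Whether these 3 genes were called depended on DSS mouse 1. Without it, Cldn1 was lower in DSS+L-Arg mice by a difference of -1.05 (adjusted p = 0.0043), Cldn23 was higher by 0.84 (adjusted p = 0.014) and Cldn2 was higher by 0.89 (adjusted p = 0.038), and all 3 were called, beside 1.62% of all genes. DSS mouse 1 lay within the range of DSS+L-Arg mice for all 3, so leaving it out could only widen the differences. These adjusted p-values are a description and no separate test. This mouse had the lowest Hoxb13 signal of its group (7.22, against 9.09 and 8.91 in the other DSS mice). Its neutrophil and macrophage markers, at a median of 1.69 above the control mean, lay between those of DSS mouse 2 (1.34) and DSS mouse 3 (3.05). With all mice kept and the mean of 9 posterior Hox genes as a covariate in limma, none of the 3 genes was called. The differences were then -0.72 for Cldn1 (adjusted p = 0.19), 0.60 for Cldn23 (adjusted p = 0.13) and 0.57 for Cldn2 (adjusted p = 0.25). Why this mouse stood apart was not tested.

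The other genes differed less between DSS+L-Arg and DSS mice. Cldn4 was 11.43, 12.31 and 12.03 in DSS+L-Arg mice, and its difference from DSS mice was 0.46 (95% interval -0.16 to 1.08). Cldn15 was 9.98, 10.80 and 10.84 in DSS+L-Arg mice, with DSS+L-Arg mouse 1 below the other 2 by more than the whole range of control mice, and a difference of 0.54 (95% interval -0.11 to 1.19). Cldn8 was 11.66, 9.50 and 9.19 in DSS+L-Arg mice, the widest spread of any gene and group here (SD 1.35). Its difference of -0.16 had a 95% interval from -1.46 to 1.14 and so leaves the direction unknown. Cldn3 was 12.63, 12.52 and 12.53 in DSS+L-Arg mice (difference 0.19, 95% interval -0.12 to 0.49). Cldn7 was 12.58, 12.79 and 12.53 in DSS+L-Arg mice, as high as in DSS mice (difference -0.03, 95% interval -0.24 to 0.19). Ocln was 10.10, 9.96 and 10.20 in DSS+L-Arg mice, no nearer to control mice than the DSS mice were (difference -0.09, 95% interval -0.36 to 0.17). Tjp1 was 10.62, 10.41 and 10.53 in DSS+L-Arg mice (difference 0.14, 95% interval -0.07 to 0.36).

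DSS+L-Arg mice were also compared with control mice, which shows how far the recovering colon with L-Arg stood from the uninjured one. None of the 10 genes was called by limma or the unequal-variance test, and limma called 0.0652% of all genes. Calls by SAM as run here were not possible with 3 against 3. At an unadjusted p under 0.05 limma took 2 of the 10, Ocln and Cldn7, against 12.6% of all genes, and the unequal-variance test and SAM took 1 each, against 9.96% and 15.3% of all genes by these tests. The groups did not overlap for Cldn7, Cldn23 and Ocln, against 23.2% of all genes. Ocln had the lowest adjusted p of the 10, with a difference of -0.53 (95% interval -0.79 to -0.26, adjusted p = 0.14), and it was called only when arrays were weighted (adjusted p = 0.029). Every DSS+L-Arg mouse was below every control mouse for Ocln. Cldn7 was higher by 0.22 (95% interval 0.01 to 0.44, adjusted p = 0.38). Cldn1 differed by 0.16 (95% interval -0.32 to 0.65) and Cldn23 by -0.20 (95% interval -0.59 to 0.20).

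L-Arg without DSS was compared with control to see whether the supplement alone was followed by a difference in the uninjured colon. None of the 19938 genes was called by limma or the unequal-variance test, and SAM as run here cannot call any with 3 against 3. By limma, 3.44% of all genes had an unadjusted p under 0.05. Of the 10 genes this held for Cldn4, Cldn23 and Tjp1 in limma, while the unequal-variance test took 3, against 3.01% of all genes, and SAM 5, against 4.84%, with none called. Cldn4 was 11.28, 11.97 and 11.04 in control+L-Arg mice, against 12.13, 12.48 and 11.80 in control mice. Each control+L-Arg mouse was lower than the control mouse of the same number, though the labels do not pair the mice and the ranges overlapped. The difference was -0.71 (95% interval -1.32 to -0.09, adjusted p = 0.999). Cldn23 was 9.01, 9.22 and 8.82 in control+L-Arg mice, against 9.66, 9.60 and 9.50 in control mice, a difference of -0.57 (95% interval -0.96 to -0.17) with no overlap. Tjp1 was 10.37, 10.24 and 10.14 in control+L-Arg mice, against 10.63, 10.55 and 10.48 in control mice, a difference of -0.31 (95% interval -0.52 to -0.09), again with no overlap.

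In the same comparison both channel-forming claudins had higher means, as did Cldn1 by 0.07. Cldn2 was 9.70, 9.79 and 9.96 in control+L-Arg mice, against 9.09, 9.49 and 9.49 in control mice (difference 0.46, 95% interval -0.06 to 0.98). Cldn15 was 10.63, 10.76 and 10.83 in control+L-Arg mice, against 10.28, 10.49 and 10.54 in control mice (difference 0.30, 95% interval -0.35 to 0.95). For both genes every control+L-Arg mouse was above every control mouse. Cldn7 (12.34, 12.32 and 12.15 in control+L-Arg mice) and Ocln (10.46, 10.48 and 10.22 in control+L-Arg mice) were below the control mice without overlap, so 6 of the 10 genes did not overlap, against 10.4% of all genes. None of these was called. The median of the epithelial markers was also lower in every control+L-Arg mouse than in every control mouse. With these markers as a covariate the differences were smaller, at 0.26 for Cldn2, 0.10 for Cldn15, -0.17 for Tjp1 and -0.09 for Ocln. They were then -0.54 for Cldn4, -0.49 for Cldn23 and -0.13 for Cldn7, and none of the 10 was called. With the mouse number as a block in a fit of these 2 groups alone, 0% of all genes were called and 7.66% had an unadjusted p under 0.05, and the unadjusted p was 0.00025 for Cldn4, 0.00081 for Cldn23, 0.0025 for Cldn2, 0.010 for Tjp1 and 0.011 for Cldn15. The lowest adjusted p among the 10 was then 0.503, so this fit also called none. The labels do not pair the mice, and the pairing was taken up after these values were seen. The unadjusted p-values of this fit are therefore a description and not a separate test.

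DSS+L-Arg and control+L-Arg mice differ by DSS, with L-Arg given to both. None of the 10 was called in this comparison by limma or the unequal-variance test, and limma called 0.306% of all genes. In this comparison too SAM as run here cannot call a gene with 3 against 3. At an unadjusted p under 0.05 limma took 3 of the 10 (Cldn7, Ocln and Tjp1), against 15.6% of all genes, the unequal-variance test 2, against 9.11%, and SAM 4, against 14.5%. The groups did not overlap for these 3 and Cldn23, against 21.1% of all genes. Cldn7 was 12.58, 12.79 and 12.53 in DSS+L-Arg mice, against 12.34, 12.32 and 12.15 in control+L-Arg mice. The groups did not overlap, and the difference was 0.36 (95% interval 0.15 to 0.58, adjusted p = 0.13). Ocln differed by -0.30 (95% interval -0.57 to -0.04) and Tjp1 by 0.27 (95% interval 0.06 to 0.48). Cldn23 differed by 0.37 (95% interval -0.03 to 0.76), whereas in DSS against control mice it was lower.

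The effect of L-Arg with DSS minus its effect without DSS was tested as an interaction. None of the 10 was called (limma), with 0.0752% of all genes called, and 4 of the 10 had an unadjusted p under 0.05, against 10.8% of all genes. Cldn23 had the lowest adjusted p of the 10, with an interaction of 1.17 (95% interval 0.61 to 1.73, adjusted p = 0.15). Its mean was 0.61 higher with L-Arg in mice given DSS and 0.57 lower with L-Arg in mice without DSS. Cldn4 had an interaction of 1.17 (95% interval 0.29 to 2.04), Tjp1 of 0.45 (95% interval 0.15 to 0.75) and Cldn1 of -0.80 (95% interval -1.48 to -0.12). Without DSS mouse 1, again as a description, the interaction was called for Cldn23 (1.41, adjusted p = 0.014) and Cldn1 (-1.12, adjusted p = 0.031), beside 0.266% of all genes.

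Mice of 1 group differed in how much of their signal came from genes of the posterior body axis. Posterior Hox genes keep a memory of position along the gut and are highest in the distal colon. Hoxb13 was 10.90, 6.65 and 6.28 in DSS+L-Arg mice, 7.22, 9.09 and 8.91 in DSS mice, 10.86, 8.12 and 10.33 in control+L-Arg mice, and 11.15, 7.42 and 10.81 in control mice. DSS+L-Arg mice 2 and 3, DSS mouse 1, control+L-Arg mouse 2 and control mouse 2 were low. None of the 9 posterior Hox genes was called in any comparison. Their median difference was nonetheless -0.58 for DSS against control mice and -0.66 for DSS+L-Arg against control mice. It was -0.62 for DSS+L-Arg against control+L-Arg mice, -0.03 for DSS+L-Arg against DSS mice and -0.02 for control+L-Arg against control mice.

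Cldn8 followed the mean of the 9 posterior Hox genes within the groups in part. The mouse with the highest mean was also highest for Cldn8 among DSS+L-Arg mice (mouse 1, 11.66) and control+L-Arg mice (mouse 1, 11.63). In control mice both mice with a high mean stood at 11.63 against 10.60 in mouse 2. DSS mouse 3 was an exception, with the lowest Cldn8 of its group at 9.68. Cldn4 ran the other way in most mice. The mouse with the lowest mean of the posterior Hox genes had the highest Cldn4 signal in DSS mice (mouse 1, 11.79), control+L-Arg mice (mouse 2, 11.97) and control mice (mouse 2, 12.48), and in DSS+L-Arg mice the 2 low mice had 12.31 and 12.03 against 11.43 in mouse 1. With the mean of the 9 posterior Hox genes as a covariate, the difference of DSS from control mice was -0.91 for Cldn4 (SE 0.15, adjusted p = 0.0074), which was then called, and -0.57 for Cldn8 (SE 0.40, adjusted p = 0.46). In that fit Cldn23 stayed called (-0.89, adjusted p = 0.013) and Cldn1 did not (0.89, adjusted p = 0.053). With the epithelial markers as a covariate neither was called (Cldn1 0.92, adjusted p = 0.074 and Cldn23 -0.77, adjusted p = 0.070).

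**Figure D3:**
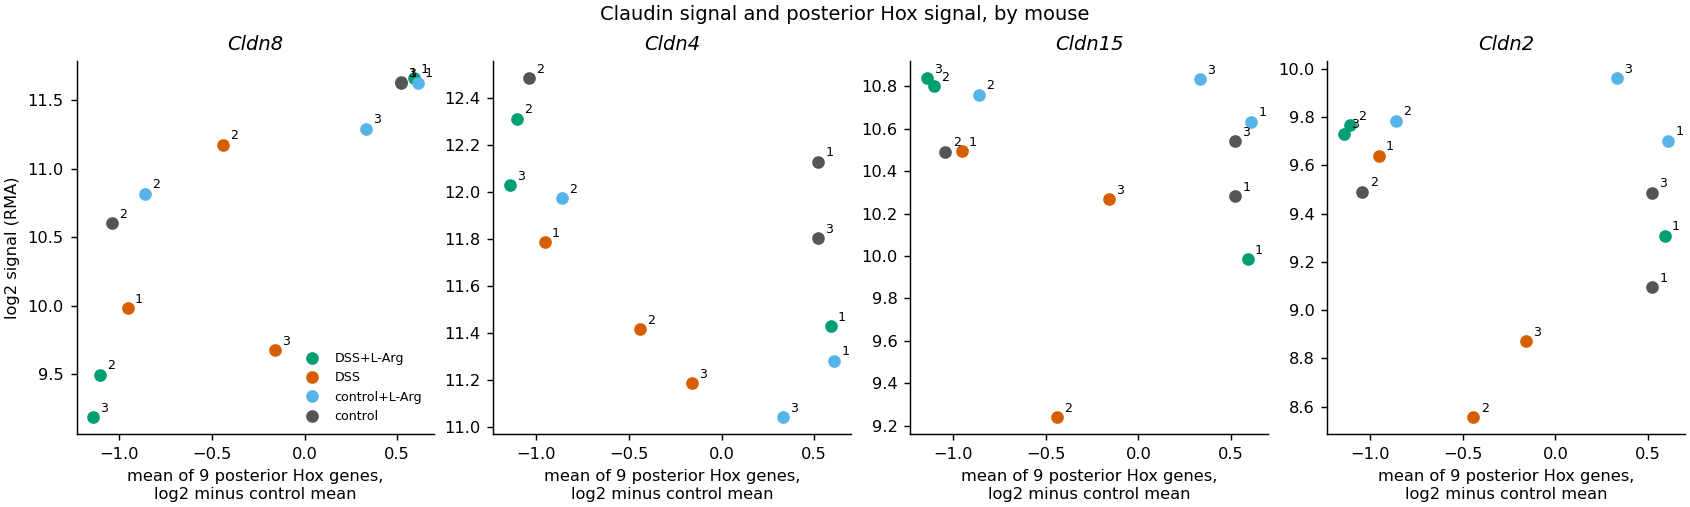
Log2 signal of Cldn8, Cldn4, Cldn15 and Cldn2 (y axes) against the mean of 9 posterior Hox genes on the log2 scale, set to 0 at the control mean (x axes). Each point is a mouse with its number, colored by group. Cldn8 is at 11.29 or more in the 5 mice farthest to the right and Cldn4 is at 12.48 in control mouse 2 on the left.

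Cldn2 and Cldn15 varied together over the 12 mice. DSS mouse 2 was the lowest of all 12 for both (8.56 and 9.24), and control+L-Arg mice were at or near the top for both. Within DSS+L-Arg mice, mouse 1 was low for both genes, and within control mice mouse 1 was. Cldn1 had its highest signals in the DSS mice (2 and 3) in which Cldn2 and Cldn23 were lowest. The 3 genes of the array most like Cldn1 by Pearson's r over the 12 mice were Olr1 (0.97), which encodes a receptor for oxidized lipoprotein, Sprr2h (0.96), of the small proline-rich family, and Cops5 (0.95), a COP9 signalosome subunit. Those most like Cldn23 were Taz (0.94), Sh3d19 (0.94) and Atf3 (0.94), the last of which encodes a stress-induced transcription factor. All 12 mice share the 4 groups, so these values include the differences between groups.

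Beyond the 10 genes, 66 of 71 listed junction genes were measured, and none was called by limma in any of the 6 comparisons. Their median difference was -0.00 for DSS against control mice (-0.01 over all genes) and 0.04 for DSS+L-Arg against DSS mice (0.06 over all genes). At an unadjusted p under 0.05 limma took 7 of 66 for DSS against control mice, below the 19.6% of all genes, and 2 of 66 for DSS+L-Arg against DSS mice, below the 13.5% of all genes. The unequal-variance test took 5 and 2 (9.91% and 5.80% of all genes), and SAM took 6 and 2 (17.5% and 9.72% of all genes), with none called. Other comparisons differed. For control+L-Arg against control mice limma took 8 of 66, above the 3.44% of all genes, and the unequal-variance test 1 (3.01%). For DSS+L-Arg against control+L-Arg mice limma took 19 of 66, above the 15.6% of all genes, and the unequal-variance test 13 (9.11%). The median differences there were -0.09 and 0.11. Limma took 4 for DSS+L-Arg against control mice (12.6%) and 8 for the interaction (10.8%).

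By role, the 23 further membrane proteins had medians of -0.01 for DSS against control mice and 0.07 for DSS+L-Arg against DSS mice. F11r, which encodes the adhesion molecule JAM-A, differed by -0.05 between DSS and control mice (95% interval -0.25 to 0.16). Marveld2, which encodes tricellulin of the corners where cells meet, differed by -0.26 (95% interval -0.48 to -0.03, adjusted p = 0.19). Both had narrower intervals than most of the claudins above. Cldn10 differed by 0.39 between DSS and control mice (adjusted p = 0.083), and Cldn9 by 0.62 between DSS+L-Arg and DSS mice (adjusted p = 0.094). These last 2 were named after their values were seen, as the lowest adjusted p of the membrane proteins in each comparison.

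The 11 plaque scaffolds had medians of -0.01 and 0.02 in the same comparisons. Tjp3, which encodes the scaffold ZO-3, differed by 0.21 between DSS and control mice (95% interval -0.04 to 0.46), and Cgn, which encodes cingulin, by 0.31 (95% interval 0.04 to 0.57, adjusted p = 0.18). Both differences had the opposite sign to that of Tjp1. The 9 polarity proteins had medians of 0.00 and 0.06, and the 9 regulators -0.04 and -0.00. Epcam, a membrane protein that stabilizes claudin-7, differed by -0.04 between DSS and control mice (95% interval -0.22 to 0.14), beside the 0.25 of Cldn7. The 14 genes of the adherens junction and desmosome had medians of 0.05 and 0.08. Cdh1, which encodes E-cadherin, differed by -0.15 (95% interval -0.35 to 0.05). Nectin3, an adhesion molecule of the adherens junction that was named after its value was seen, had the lowest adjusted p of the 66 for DSS against control mice (-0.49, adjusted p = 0.072).

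**Figure D4:**
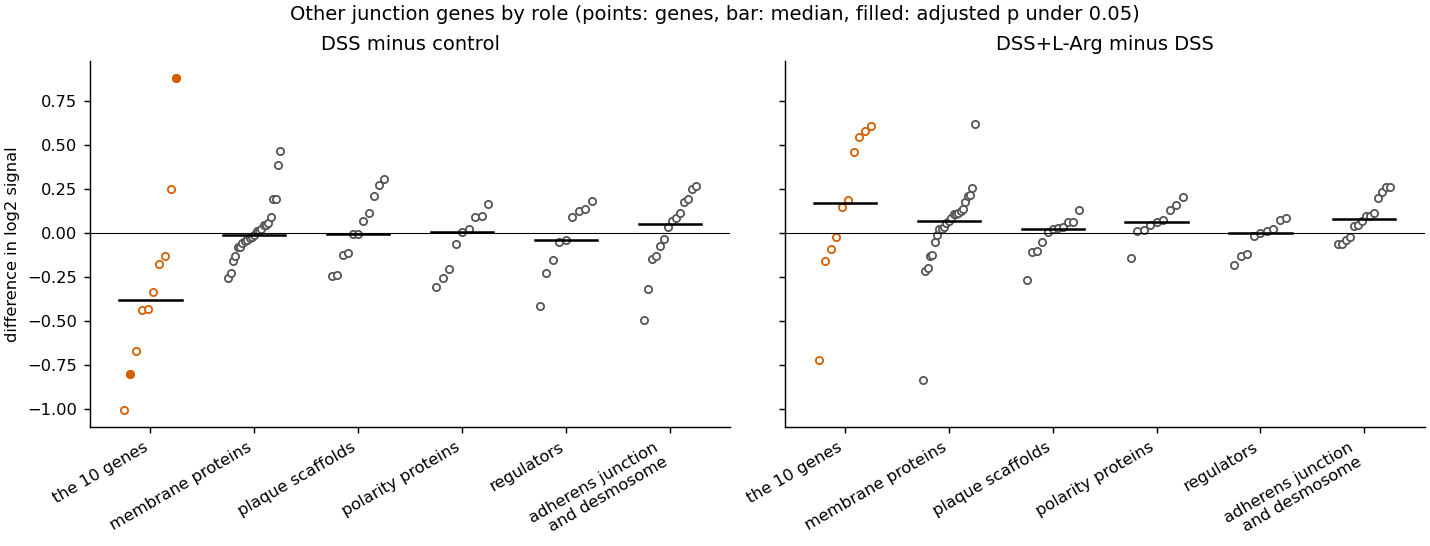
Difference in log2 signal (y axis) of the 10 genes and of 66 other junction genes by role (x axis), for DSS minus control and DSS+L-Arg minus DSS. Points are genes, black bars are medians, and filled points have an adjusted p under 0.05. The medians of the other lists lie between -0.04 and 0.08, and that of the 10 genes is -0.38 for DSS minus control. The 10 genes and the lists were chosen with earlier results of these data known.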

How the data were processed

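Colon RNA of 12 mice was measured on Affymetrix mouse Gene ST arrays. Per the labels and notes, the authors used Affymetrix Expression Console 1.1 with RMA (notes name build mm9), and the deposited values are log2 signals, background-corrected and quantile-normalized, which hides shifts common to most genes. Of 35556 probe sets, those with several genes (1621) or not in the platform table (12146) were left out, and the brightest was kept per gene. Array medians were 6.49 to 6.64, and arrays of a group differed by over 0.01 in at least 95.1% of genes. Precision is limited by 3 mice a group. The labels do not say that mouse numbers pair animals.

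The test was limma 3.58.1 (R 4.3.3), with 4 group means over 12 arrays, and genes were called at an adjusted p under 0.05 (Benjamini-Hochberg over 19938 genes). The study selected genes by a SAM p-value and a fold change, and reported such genes. Here SAM was an alternative, run with all label orders pooled over genes and then adjusted by Benjamini-Hochberg. The pool holds the observed order and its mirror, so this version cannot reach the threshold with 3 against 3. That limit is one of the version run here and not of the calls of the study. The other alternatives were a fit of the compared groups only, the mouse number as a block, array centring, a further quantile normalization, a low-signal filter, the mean of probe sets, an unequal-variance test, array weights, a trended robust prior, 2 covariates and leaving out each array. Mouse numbers were taken as pairs only between control+L-Arg and control, in a fit added after seeing the data. Every same-numbered pair of these groups deviated together (r = 0.205, 0.477 and 0.261). Control+L-Arg mouse 1, however, correlated more with control mouse 3 (r = 0.272) than with control mouse 1, so the match was not particular to the numbers. The fit was tested on simulated data. The 10 genes and the lists were chosen with earlier results of these data known. The text names the 10 genes, the called genes of each list with the largest change (up to 4), fixed junction genes, and the 3 genes most like each called one. Hoxb13, Cldn9, Cldn10 and Nectin3 were named outside this rule. Some listed genes are not reported here. Python 3.11.15 with pandas 2.3.3 served for joins and motifs, and matplotlib 3.10.9 for plots.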

Additional observations from a re-analysis of the deposited data

How the results depend on the processing

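Of the 10 genes, 2 were called for DSS against control mice. This count was 0 with only these groups in the fit, with array weights, the unequal-variance test or the epithelial covariate. It was also 0 with SAM, which as run here cannot call a gene with 3 against 3. The count was 1 with the replicate block, centred arrays or further quantile normalization. With low genes left out it was 1 because the filter removed Cldn1, which was then not tested. It was 0 to 2 when single mice were left out. Under the replicate block Cldn1 lost its call, and the block changed no other call of the 10 genes. For DSS+L-Arg against DSS mice the count of 0 became 0 to 3 when single mice were left out (3 without DSS mouse 1). For DSS+L-Arg against control mice it was 1 with array weights. For the interaction it was 0 to 2 when mice were left out (2 without DSS mouse 1). Among the 66 other junction genes, the count of 0 for DSS against control mice was 1 with the epithelial covariate (Cgn, 0.42, adjusted p = 0.045) and 0 to 1 with mice left out (Nectin3 without DSS mouse 1, -0.67, adjusted p = 0.0058). For DSS+L-Arg against DSS mice it was 1 with the posterior Hox covariate (Cldn9, 0.61, adjusted p = 0.048) and 0 to 1 with mice left out (Cldn9 without DSS+L-Arg mouse 1, 0.79, adjusted p = 0.046). The cause was not tested.

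Over the single log2 differences of the 10 genes, 1345 kept their direction and side of the threshold, 32 lost and 7 gained a call, and 40 changed sign, none of them called. Between DSS+L-Arg and DSS mice, Cldn7 was 0.0019 with centred arrays. For control+L-Arg against control mice, Cldn3 was 0.025 with the epithelial covariate, and Cldn8 was 0.0082 with further quantile normalization, 0.019 with array weights and 0.021 with the epithelial covariate. For DSS+L-Arg against control+L-Arg mice, the epithelial covariate gave -0.032 for Cldn1, 0.032 for Cldn2, -0.0090 for Cldn3 and 0.052 for Cldn15. Between DSS+L-Arg and control mice, Cldn15 was -0.034 with the posterior Hox covariate and Tjp1 was 0.023 with centred arrays. The interaction was -0.081 for Cldn2 with array weights and -0.11 for Ocln with the epithelial covariate.

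Leaving out single mice gave signs on both sides of 0 for the following ranges. For DSS against control mice, Cldn3 was -0.21 to 0.020. In DSS+L-Arg against DSS mice, Cldn7 was -0.11 to 0.025 and Cldn8 -0.93 to 0.30. For control+L-Arg against control mice, Cldn8 was -0.38 to 0.17. With L-Arg in both groups, Cldn1 was -0.0027 to 0.16 and Cldn15 -0.35 to 0.078. In DSS+L-Arg against control mice, Cldn3 was -0.0025 to 0.10, Cldn4 -0.41 to 0.031, Cldn15 -0.046 to 0.38 and Tjp1 -0.086 to 0.021. For the interaction the range was -0.11 to 0.43 for Cldn2, -0.89 to 0.34 for Cldn8, -0.14 to 0.52 for Cldn15 and -0.00019 to 0.20 for Ocln. The trended prior and the mean of probe sets changed no call, and the signal of Cldn1 near the low end of the arrays limits what its values can show.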
